A study of Arabidopsis thaliana with 6 samples.

Results

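Jasmonate synthesis and signalling was followed through 36 genes, picked by locus identifier from the 22426 loci of a deposited expression table, and all 36 were found there. The genes covered the enzymes that make the hormone, its receptor, the repressors and activators behind the receptor, the target genes and the enzymes that break the hormone down. RNA came from whole 2-week-old Arabidopsis thaliana seedlings of 2 groups with 3 libraries each, an NCBP mutant and the wild type, grown at 22 °C in a greenhouse under long days, with 16 hours lit and 8 dark. NCBP belongs to the eIF4E family of proteins, which bind the capped start of messenger RNA. The labels name neither the allele nor the accession of the plants and do not say whether replicates were grown separately. The p-values therefore rest on a spread between libraries that could be purely technical.

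Jasmonate is made from polyunsaturated fatty acids of the chloroplast, is finished in the peroxisome and acts as a conjugate with isoleucine. The conjugate brings the F-box protein COI1 and a JAZ repressor together, the repressor is destroyed, and MYC transcription factors are set free. In leaves the hormone is best known for wound and insect defence, and a second branch through ERF factors such as ORA59 works together with ethylene against fungi that kill their host cells.

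Expression was given as FPKM, that is, fragments divided by the length of the gene and by the size of the library. No library totals were given, so absolute depth is unknown, but the lowest values placed the depth of the mutant libraries between 1.158 and 1.312 times, and of the other wild-type libraries at 1.098 and 1.174 times, that of wild-type replicate 1. NCBP itself (AT5G18110) had 57.9, 59.2 and 55.8 FPKM in the mutant libraries, against 97.4, 100.4 and 97.9 FPKM in wild type, and 12.7% of its exonic length in the TAIR10.1 annotation is shared with a gene on the opposite strand. Markers of leaf and root were present in both groups, with summed FPKM of 32030 to 34500 for 5 leaf genes and 116.6 to 127.7 for 7 root genes in the mutant, against 31500 to 37390 and 109.9 to 137.1 in wild type. Within these sums the leaf gene RCA fell, averaging 4932 ± 116 FPKM in the mutant and 5949 ± 376 FPKM in wild type (limma adjusted p 0.047), and the root gene NRT2.1 rose, averaging 2.42 ± 0.746 FPKM in the mutant and 0.932 ± 0.41 FPKM in wild type (0.0333). NRT2.1 averaged under 1 FPKM in wild type, so it met the filter given below only through the mutant libraries. The other 10 leaf and root markers did not pass, and the part of RCA and NRT2.1 in the jasmonate results was not tested. Of 5 flower markers, AP1, AP3 and AG reached at most 0.2 FPKM in any library, and PI and SEP3 differed in opposite directions without passing. PI averaged 1.27 ± 0.363 FPKM in the mutant and 2.56 ± 1.02 FPKM in wild type, with overlap (limma adjusted p 0.106). SEP3 averaged 2.91 ± 0.502 FPKM in the mutant and 1.92 ± 0.277 FPKM in wild type, without overlap (0.0712). The 4 seed markers in the table summed to at most 0.382 FPKM in the mutant and 1.60 FPKM in wild type.

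Of the 36 genes, 29 had a mean of at least 1 FPKM over the 6 libraries and were tested, as rows of a limma fit to log2(FPKM + 1) of 18064 genes, with Benjamini-Hochberg adjustment over all of them and a threshold of 0.05. In the mutant LOX2, OPCL1, ORA59, VSP2 and TAT3 rose, AOC1 and AOS fell, and the other 22 did not pass. The share that passed was 24.1% (7 of 29), against 14.7% of all genes tested. For rises the share was 17.2%, against 6.27% of all genes, and for falls 6.9%, against 8.44%. TAT3, counted among the rises, averaged under 1 FPKM in wild type and met the filter only through the mutant libraries. With no filter 13.9% of the 36 jasmonate genes passed, against 10.1% of all genes. The median log2 fold change was 0.07 for the 29 genes and 0.00 for all genes, and the median size of the change was 0.19 and 0.13. The groups did not overlap for 13 of the 29 (44.8%), against 35.5% of all genes. The genes were chosen with earlier results of these data known, so these shares describe the list and do not test it. They also depend on level: with a mean of at least 5 FPKM required, 29.2% of the jasmonate genes tested and 19.1% of all genes passed. In whole seedlings, a change in the number of cells of a type and a change in RNA per cell cannot be told apart. The split between directions over all genes depended on scaling: 42.6% of the genes that passed were higher in the mutant with FPKM as deposited and 53.9% after each library was rescaled to the same sum, where 6 of the jasmonate genes rose and 2 fell. With mutant replicate 1 or 2 left out 4 of the 29 passed, with mutant replicate 3 or wild-type replicate 1 left out 5, and with wild-type replicate 2 or 3 left out 6, while between 7.24% and 10.6% of all genes passed in these smaller fits.

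**Figure D1:**
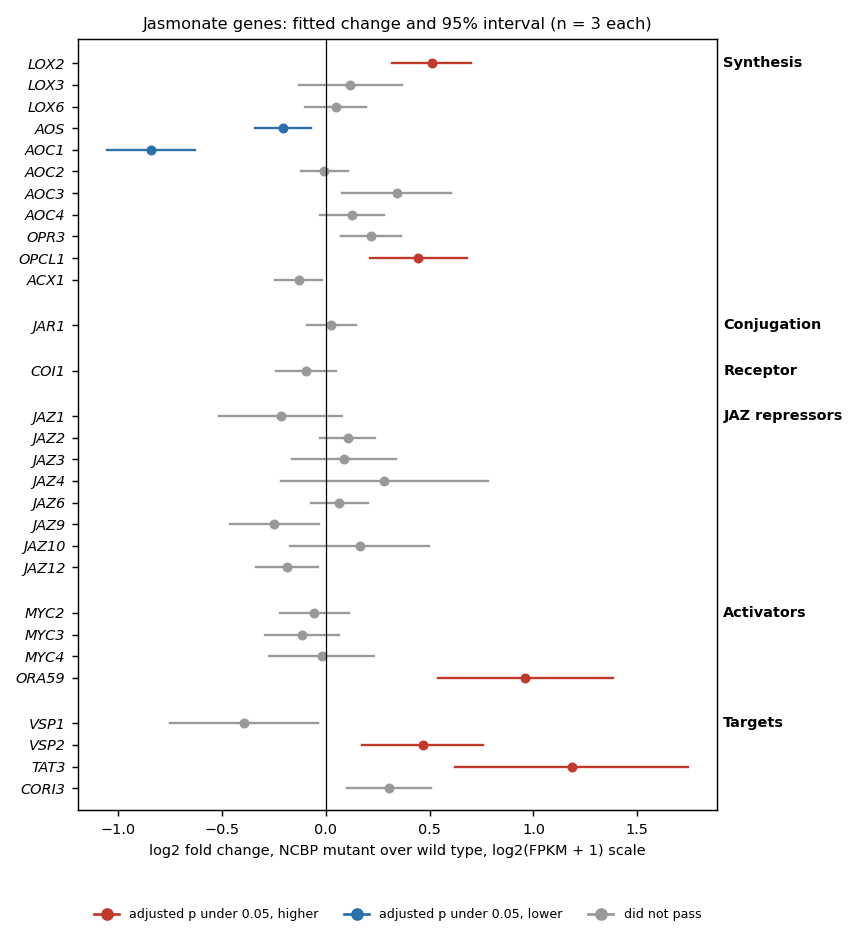
Fitted log2 fold change of the NCBP mutant over wild type for the 29 tested jasmonate genes (x axis, log2(FPKM + 1) scale) with 95% intervals, grouped by role; red and blue mark an adjusted p under 0.05. The values run from -0.84 for AOC1 to 1.18 for TAT3, and no JAZ gene is coloured.

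The levels spanned the table. AOC2 (mean of the 6 libraries 160.7 FPKM), VSP2 (120.3 FPKM), AOS (99.0 FPKM), JAZ12 (75.4 FPKM) and LOX2 (64.1 FPKM) were the most abundant per length, each above at least 90.1% of all loci. At the other end LOX4, JAZ5, JAZ7, JAZ8, CYP94B3, CYP94C1 and THI2.1 averaged between 0.0828 and 0.832 FPKM and were left out of the test. The spread between libraries was close to that of other genes: the median coefficient of variation of the 29 genes was 6.88% in the mutant and 6.64% in wild type, against 6.62% and 7.41% for all genes tested.

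**Figure D2:**
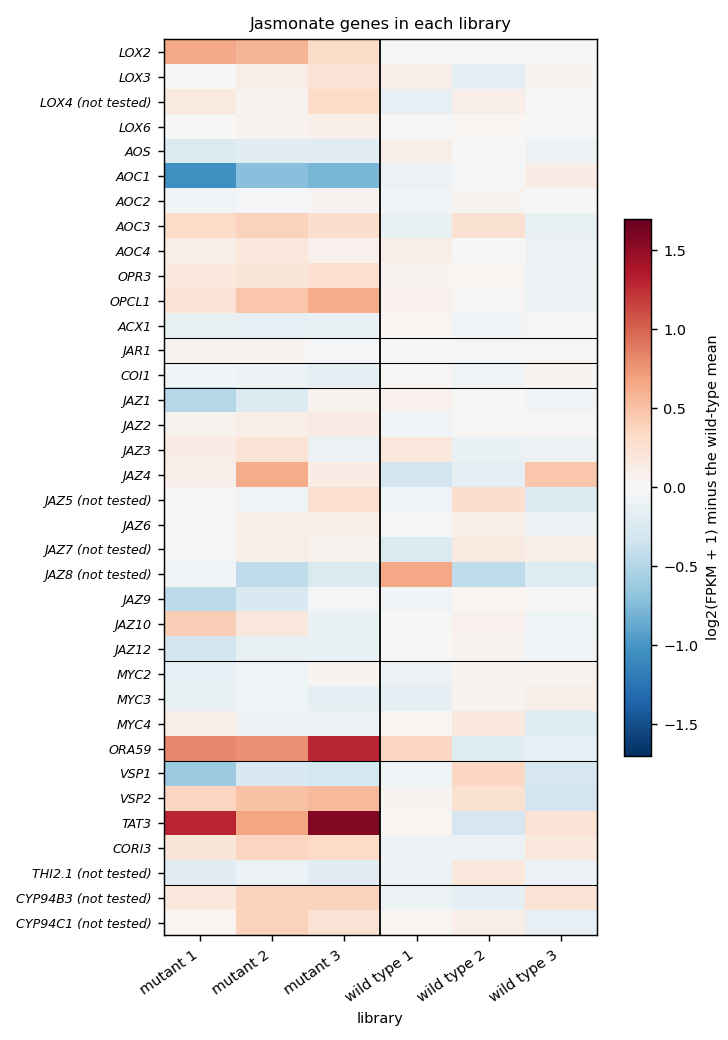
Each of the 36 genes (rows, grouped by role) in each library (columns), as log2(FPKM + 1) minus the wild-type mean of that gene; mutant libraries are on the left. Values in the mutant run from -1.04 to 1.58, and the strongest colours are those of AOC1, ORA59 and TAT3.

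Of the lipoxygenases, which oxygenate chloroplast fatty acids at the start of the pathway, LOX2 rose, an isoform abundant in leaves. LOX2 (AT3G45140) had 82.6, 78.9 and 65.2 FPKM in mutant replicates 1, 2 and 3, against 51.2, 53.4 and 53.0 FPKM in wild type. All mutant libraries lay above all wild-type libraries, which were close together (log2 fold change 0.51, SE 0.08, adjusted p 0.00673). LOX3, LOX4 and LOX6 are the other lipoxygenases of this step. LOX3 (AT1G17420) had 4.10, 4.48 and 4.93 FPKM in the mutant, against 4.49, 3.53 and 4.21 FPKM in wild type, and the groups overlapped (adjusted p 0.505). LOX6 (AT1G67560) averaged 11.1 ± 0.387 FPKM in the mutant and 10.7 ± 0.269 FPKM in wild type (SD, n = 3 each), with an adjusted p of 0.672. LOX4 (AT1G72520), under the filter, had 0.918, 0.762 and 1.14 FPKM in the mutant, against 0.554, 0.848 and 0.725 FPKM in wild type. Summed over the 4 genes, lipoxygenase FPKM was 98.2, 95.4 and 82.7 in the mutant, against 67.0, 68.8 and 68.4 in wild type, and LOX2 made up 78.9% to 84.1% of it in the mutant, against 76.5% to 77.7% in wild type.

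The next enzyme, allene oxide synthase, was slightly lower. AOS (AT5G42650) had 89.2, 92.8 and 93.4 FPKM in the mutant, against 113.6, 105.7 and 99.5 FPKM in wild type, without overlap (log2 fold change -0.21, SE 0.06, adjusted p 0.0473). The call was lost on leaving out any single library other than wild-type replicate 3, with adjusted p between 0.0868 and 0.14. It was also lost with no filter (0.0592), median-ratio scaling (0.0543), quantile normalization (0.0722) and no mean trend (0.0981), and the range over 17 alternatives was 0.0349 to 0.14.

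Allene oxide cyclase, which turns the product of AOS into the ring of the jasmonate precursor OPDA, is encoded by 4 genes, of which AOC1 fell and the others did not pass. AOC1 (AT3G25760) fell to 28.8, 36.3 and 34.8 FPKM in the mutant, against 56.0, 59.4 and 65.6 FPKM in wild type. The mutant level was 55.2% of the wild-type level, with a wide gap between the groups (log2 fold change -0.84, SE 0.09, adjusted p 0.00146). AOC2 (AT3G25770), its direct neighbour on chromosome 3 and the most abundant copy, had 155.7, 159.3 and 165.8 FPKM in the mutant, against 155.4, 166.5 and 161.7 FPKM in wild type, and the libraries were mixed. Its log2 fold change was -0.01 with a 95% interval from -0.12 to 0.11 (adjusted p 0.931), and its sign turned under some scalings, to 0.02 after rescaling to the same sum and 0.03 with quantile normalization. AOC3 (AT3G25780), the next gene on the chromosome, had 7.03, 7.40 and 6.92 FPKM in the mutant, against 4.85, 6.69 and 4.86 FPKM in wild type. The groups of AOC3 did not overlap, but it did not pass (log2 fold change 0.34, adjusted p 0.0853), except without wild-type replicate 2 (0.0201). AOC4 (AT1G13280), on chromosome 1, had 33.5, 35.4 and 32.5 FPKM in the mutant, against 33.3, 30.8 and 28.7 FPKM in wild type, with overlap (adjusted p 0.251).

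Because AOC2 dominates, the sum of the 4 copies differed less than AOC1 did. It was 225, 238 and 240.0 FPKM in the mutant, against 249, 263 and 261 FPKM in wild type, while the share of AOC1 in it was 12.8%, 15.2% and 14.5% in the mutant, against 22.4%, 22.5% and 25.2% in wild type. The ratio of AOC1 to AOC2 was 0.185, 0.228 and 0.21 in the mutant, against 0.36, 0.356 and 0.406 in wild type, with no overlap and no test of its own. Few reads could fit more than 1 copy without a mismatch: in TAIR10.1, 2.1% of the 50-base windows of AOC1 occur in AOC3, the copy closest to it by this measure, and 0.0799% of those of AOC2 occur in another gene. The fall of AOC1 passed in all 17 alternatives, with log2 fold changes from -0.91 to -0.74.

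**Figure D3:**
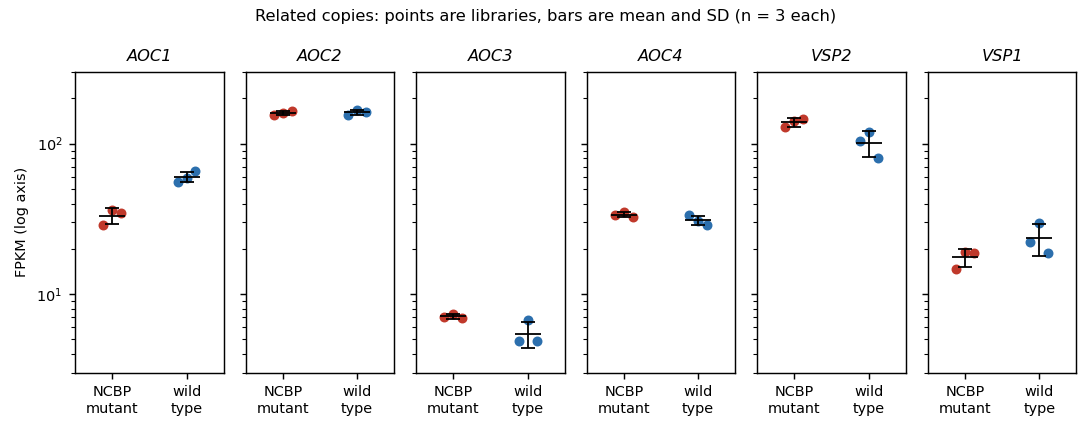
FPKM (log axis) of the 4 allene oxide cyclase genes and of VSP2 and VSP1 in each library, with mean and SD (n = 3 each), mutant on the left. AOC1 is lower in the mutant (33.3 against 60.3 FPKM) while AOC2 averages 160.3 against 161.2 FPKM, and VSP2 is higher in the mutant (139.1 against 101.5 FPKM) while VSP1 averages 17.5 against 23.6 FPKM.

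Of the genes for the steps in the peroxisome, OPCL1 rose. OPCL1 (AT1G20510), the ligase that activates the precursor for chain shortening, had 12.4, 14.9 and 16.6 FPKM in the mutant, against 11.0, 10.6 and 9.73 FPKM in wild type. The groups did not overlap, and mutant replicate 1 was the nearest to wild type (log2 fold change 0.44, SE 0.10, adjusted p 0.0234). OPR3 (AT2G06050), the reductase of OPDA, had 21.7, 22.2 and 23.4 FPKM in the mutant, against 19.9, 19.6 and 18.0 FPKM in wild type, without overlap but just outside the threshold (log2 fold change 0.22, adjusted p 0.0517). It passed in 6 of 17 alternatives, 0.0326 after rescaling to the same sum being the lowest adjusted p of a range up to 0.139. ACX1 (AT4G16760), the oxidase that starts the chain shortening, averaged 41.4 ± 0.33 FPKM in the mutant and 45.5 ± 1.29 FPKM in wild type and did not pass (log2 fold change -0.13, adjusted p 0.107). OPCL1 no longer passed when wild-type replicate 2 or 3 was left out (adjusted p 0.0585 and 0.0744) or mutant replicate 2 or 3 (0.0766 and 0.0651), over a range of 0.015 to 0.0766.

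Conjugation and perception showed no change past the threshold. JAR1 (AT2G46370), which joins jasmonate to isoleucine, averaged 34.8 ± 1.24 FPKM in the mutant and 34.1 ± 0.495 FPKM in wild type, a log2 fold change of 0.03 with a 95% interval from -0.09 to 0.14. COI1 (AT2G39940), the receptor subunit, averaged 16.9 ± 0.63 FPKM in the mutant and 18.1 ± 0.894 FPKM in wild type, a log2 fold change of -0.10 with an interval from -0.24 to 0.05. Neither interval reached the change fitted for AOC1.

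JAZ repressors are encoded by transcripts that jasmonate itself induces. By limma 0 of 8 tested genes passed, a family too small to set against the 14.7% of all genes. An unadjusted p under 0.05 was seen for 2 of the 8 (25%), JAZ9 and JAZ12, against 30.9% of all genes. These 2 were the most abundant of the family. JAZ9 (AT1G70700) had 44.8, 51.2 and 60.2 FPKM in the mutant, against 59.4, 63.0 and 62.3 FPKM in wild type, and only mutant replicate 3 reached into the wild-type range (log2 fold change -0.25, adjusted p 0.116). Without mutant replicate 3 the log2 fold change of JAZ9 was -0.36 and the adjusted p 0.0255. JAZ12 (AT5G20900) had 64.5, 73.8 and 73.3 FPKM in the mutant, against 80.0, 83.9 and 77.1 FPKM in wild type, without overlap (log2 fold change -0.19, adjusted p 0.0904).

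JAZ1 and JAZ10 are among the family members known for fast induction by the hormone. JAZ1 (AT1G19180) had 5.30, 6.49 and 8.22 FPKM in the mutant, against 8.26, 7.74 and 7.46 FPKM in wild type, so mutant replicate 3 lay among the wild-type libraries and the other mutant libraries below them (adjusted p 0.298). JAZ10 (AT5G13220) had 3.56, 2.90 and 2.14 FPKM in the mutant, against 2.43, 2.58 and 2.25 FPKM in wild type, with overlap (adjusted p 0.497). The fitted changes of JAZ2, JAZ3, JAZ4 and JAZ6 were 0.10, 0.09, 0.28 and 0.07, with adjusted p from 0.27 to 0.637. JAZ2 did not overlap between the groups, at 16.9, 17.7 and 17.9 FPKM in the mutant, against 15.6, 16.5 and 16.5 FPKM in wild type. JAZ5 and JAZ7 lay between 0.321 and 1.11 FPKM in the mutant, against 0.132 and 1.13 FPKM in wild type, and JAZ8 was listed at 0 in mutant replicate 2 and wild-type replicate 2 and reached 0.305 FPKM in the mutant and 1.13 FPKM in wild type. Summed over the 11 JAZ genes, the FPKM was 185, 207 and 212 in the mutant, against 216, 222 and 213 in wild type.

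Of the 4 activators, ORA59 passed and the MYC factors did not. MYC2 (AT1G32640), MYC3 (AT5G46760) and MYC4 (AT4G17880), which drive the wound branch, did not pass in any of the 17 alternatives, and none had an unadjusted p under 0.05. MYC2 had 19.1, 20.1 and 21.9 FPKM in the mutant, against 19.7, 21.9 and 22.0 FPKM in wild type (log2 fold change -0.06, interval -0.22 to 0.11). In TAIR10.1, 98.5% of the exonic length of MYC2 lies under exons of AT1G32630 on the other strand, and without a stated strand protocol reads of these genes cannot be told apart. MYC3 averaged 13.2 ± 0.359 FPKM in the mutant and 14.4 ± 1.39 FPKM in wild type, and MYC4 averaged 8.66 ± 0.809 FPKM in the mutant and 8.84 ± 1.32 FPKM in wild type. The fitted sign of MYC4 (-0.02) turned to 0.00 after rescaling to the same sum.

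ORA59 (AT1G06160), the ERF factor at which the jasmonate and ethylene signals meet, rose. It had 4.64, 4.46 and 6.77 FPKM in the mutant, against 3.07, 1.76 and 1.90 FPKM in wild type, which is 2.36 times the wild-type mean. The lowest mutant library was above the highest wild-type library (log2 fold change 0.96, SE 0.19, adjusted p 0.0125). ORA59 passed in all 16 alternatives that tested it, and as a low gene its log2 fold change moved with the pseudocount, from 0.50 with 5 to 1.22 with 0.1.

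Mutant replicate 3, the highest library for ORA59, was also the highest mutant library for 6 of 7 markers of touch and handling (TCH2, TCH3, TCH4, ZAT10, WRKY40 and WRKY33, but not ZAT12), against 34.9% of all genes tested and 48.3% of the 29 jasmonate genes. Wild-type replicate 2 was the highest wild-type library for 5 of the 7, against 40.8% of all genes and 37.9% of the 29 jasmonate genes. For ORA59 it was the lowest wild-type library (1.76 FPKM, against 3.07 and 1.90 FPKM in replicates 1 and 3). ORA59 thus went with the markers in mutant replicate 3 and not in wild-type replicate 2, and a relation between them was not tested. The 7 summed to 73.9, 76.9 and 110.2 FPKM in the mutant, against 72.6, 89.9 and 81.4 FPKM in wild type. None of the 7 passed between the groups by limma, and 0 had an unadjusted p under 0.05. Without mutant replicate 3 the log2 fold change of ORA59 was 0.80 (adjusted p 0.0366) and that of LOX2 0.61 (0.00235), and 3 of the 29 genes rose and 2 fell.

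**Figure D4:**
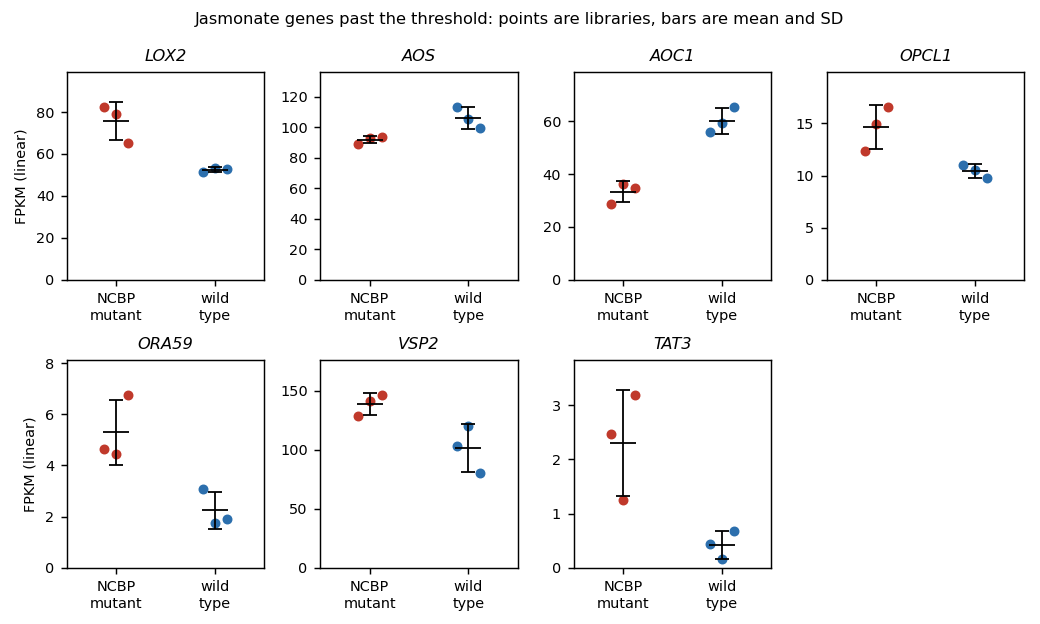
FPKM (linear axes from 0) of the 7 jasmonate genes past the threshold in each library, with mean and SD (n = 3 each), mutant on the left. The groups do not overlap in any panel, and AOC1 and AOS are the panels in which the mutant is lower.

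Among the targets VSP2 and TAT3 rose. VSP2 (AT5G24770), a classical marker of the MYC branch, had 128.8, 141.6 and 147.0 FPKM in the mutant, against 103.7, 120.5 and 80.4 FPKM in wild type. The groups did not overlap, though wild type was spread widely (log2 fold change 0.47, SE 0.13, adjusted p 0.0425). VSP1 (AT5G24780), its copy with 1 annotated gene between them, had 14.7, 19.1 and 18.7 FPKM in the mutant, against 22.0, 29.8 and 18.9 FPKM in wild type, with overlap, and it did not pass (log2 fold change -0.39, interval -0.75 to -0.04, adjusted p 0.129). The ratio of VSP2 to VSP1 within a library was 8.75, 7.40 and 7.88 in the mutant, against 4.71, 4.04 and 4.26 in wild type, a gap wider than that of either gene alone and given without a test. In TAIR10.1, 0.341% of the 50-base windows of VSP2 occur in VSP1. VSP2 did not pass when wild-type replicate 1 (0.0816) or 3 (0.0569, log2 fold change 0.31) was left out, or mutant replicate 1 (0.073), 2 (0.113) or 3 (0.117), and with robust moderation (0.0562), no mean trend (0.0823) or no filter (0.0791), over a range of 0.019 to 0.117.

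TAT3 (AT2G24850), a tyrosine aminotransferase strongly induced by jasmonate, had the largest fitted change of the 29 genes. It had 2.46, 1.25 and 3.20 FPKM in the mutant, against 0.444, 0.154 and 0.673 FPKM in wild type, 5.44 times the wild-type mean. As its wild-type mean was 0.424 FPKM, TAT3 met the filter only through the mutant libraries. With no filter its adjusted p was 0.0288. The groups did not overlap, and the mutant libraries themselves differed more than 2-fold (log2 fold change 1.18, SE 0.25, adjusted p 0.0163). The size depended on the pseudocount, from 0.42 with 5 to 2.25 with 0.1, and with mutant replicate 1 left out the adjusted p was 0.0598, the highest of a range from 0.011. CORI3 (AT4G23600), a cystine lyase induced by coronatine and jasmonate, had 15.3, 17.2 and 17.0 FPKM in the mutant, against 12.3, 12.4 and 15.0 FPKM in wild type, without overlap and just outside the threshold (log2 fold change 0.30, adjusted p 0.0529). It passed in 5 of 17 alternatives, with a range of 0.0244 to 0.152. THI2.1 (AT1G72260), a thionin, was listed at 0 in mutant replicates 1 and 3 and had at most 0.286 FPKM in any library.

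Of the enzymes that oxidise the active conjugate, CYP94B3 and CYP94C1 were too low to test, while CYP94B1, from the wider list below, was tested and fell. CYP94B3 (AT3G48520) had 0.476, 0.702 and 0.70 FPKM in the mutant, against 0.231, 0.178 and 0.533 FPKM in wild type. CYP94C1 (AT2G27690) had 0.726, 1.21 and 0.989 FPKM in the mutant, against 0.73, 0.815 and 0.523 FPKM in wild type. Both overlapped between the groups. With no filter, 0 of the 7 low genes passed, and the smallest of their adjusted p was 0.146, that of CYP94B3.

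A wider list of 51 further genes of the pathway, of which 47 were in the table and 41 were tested, held 5 that rose, 6 that fell and 30 that did not pass. Its share past the threshold was 26.8%, against 14.7% of all genes, with 12.2% higher and 14.6% lower, against 6.27% and 8.44%. NATA1, counted among the rises, averaged under 1 FPKM in wild type and met the filter only through the mutant libraries. With no filter 5 of the 47 rose and 4 fell, while 10.1% of all genes passed in either direction. As this list too was chosen with earlier results of these data known, its shares are a description and not a test. The median log2 fold change of the wider list was -0.03, against 0.00. With a single library left out 3 to 5 rose and 2 or 3 fell. Of the genes that rose, FAD3 (AT2G29980), a desaturase that makes the trienoic fatty acid outside the chloroplast, averaged 73.4 ± 4.39 FPKM in the mutant and 59.8 ± 2.65 FPKM in wild type (adjusted p 0.0163, and 0.0557 with mutant replicate 1 left out). The desaturase genes FAD7 and FAD8 did not pass (log2 fold change -0.065 and 0.119, adjusted p 0.443 and 0.212). Another gene that rose was MYC5. MYC5 (AT5G46830), a relative of MYC2 known from stamen development, had 3.88, 2.89 and 3.81 FPKM in the mutant, against 1.85, 1.45 and 1.22 FPKM in wild type, with a clear gap (log2 fold change 0.85, SE 0.14, adjusted p 0.0074). This set it apart in call, though without a test of the difference, from MYC2, MYC3 and MYC4.

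Target genes in the wider list moved both ways. CLH1 (AT1G19670), a chlorophyllase induced by coronatine, averaged 58.8 ± 3.98 FPKM in the mutant and 41.6 ± 3.21 FPKM in wild type (log2 fold change 0.49, adjusted p 0.00438). HEL (AT3G04720), a hevein-like defence protein of the ethylene and jasmonate branch, averaged 118.8 ± 12.2 FPKM in the mutant and 91.1 ± 1.88 FPKM in wild type (adjusted p 0.0128). PDF1.2 (AT5G44420), the defensin known as a target of ORA59, did not pass, with 15.8, 13.1 and 22.3 FPKM in the mutant, against 15.2, 11.8 and 22.5 FPKM in wild type (log2 fold change 0.06, interval -0.47 to 0.59). NATA1 (AT2G39030), an acetyltransferase that makes acetylornithine, had 1.73, 1.55 and 1.82 FPKM in the mutant, against 0.48, 0.564 and 1.02 FPKM in wild type (adjusted p 0.0242). With a wild-type mean of 0.688 FPKM, NATA1 met the filter only through the mutant libraries (adjusted p 0.0219 with no filter). ARGAH2 (AT4G08870), a jasmonate-induced arginase, fell to 42.1, 42.5 and 46.4 FPKM in the mutant, against 70.5, 71.4 and 74.5 FPKM in wild type. Its groups were far apart, and it had the smallest adjusted p of both lists (log2 fold change -0.71, SE 0.06, adjusted p 0.00035). Arginase makes ornithine, the substrate of NATA1, and the transcripts of these enzymes moved in opposite directions. On leaving out a library, NATA1 passed without wild-type replicate 3 and not without any of the others (adjusted p 0.0598 to 0.0738).

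The other falls in the wider list were in turnover, transport and repression. CYP94B1 (AT5G63450), an oxidase of the active conjugate, had 2.57, 2.67 and 2.43 FPKM in the mutant, against 4.36, 3.97 and 4.63 FPKM in wild type, without overlap (log2 fold change -0.58, SE 0.10, adjusted p 0.00759). ILL6 (AT1G44350), a hydrolase that splits the conjugate, averaged 6.86 ± 0.761 FPKM in the mutant and 9.03 ± 0.289 FPKM in wild type (adjusted p 0.0291). These were 2 of 6 tested turnover genes, too few to set against the 8.44% of all genes that fell. JOX2 (AT5G05600), an oxidase of free jasmonate, did not pass and averaged 8.10 ± 2.08 FPKM in the mutant and 11.9 ± 1.86 FPKM in wild type (adjusted p 0.0617). JAV1 (AT3G22160), a repressor of jasmonate defence, averaged 7.06 ± 0.575 FPKM in the mutant and 9.16 ± 0.37 FPKM in wild type (adjusted p 0.0265). TPL (AT1G15750), a general co-repressor, averaged 31.3 ± 1.41 FPKM in the mutant and 36.8 ± 0.515 FPKM in wild type (adjusted p 0.0272). PXA1 (AT4G39850), the peroxisomal importer of the precursor, averaged 14.6 ± 0.275 FPKM in the mutant and 17.1 ± 0.678 FPKM in wild type (adjusted p 0.0454). The calls of CYP94B1, ARGAH2, CLH1, HEL and MYC5 passed in every alternative that tested them, while those of TPL and PXA1 were lost on leaving out any single library (adjusted p 0.0546 to 0.0772 and 0.0532 to 0.122) and after rescaling to the same sum (0.067 and 0.116). Of the fits with 1 library left out, ILL6 passed in that without mutant replicate 2 (0.064 to 0.0965 in the others) and JAV1 in that without mutant replicate 1 (0.0505 to 0.0825 in the others), and JAV1 was also lost after rescaling (0.059).

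**Figure D5:**
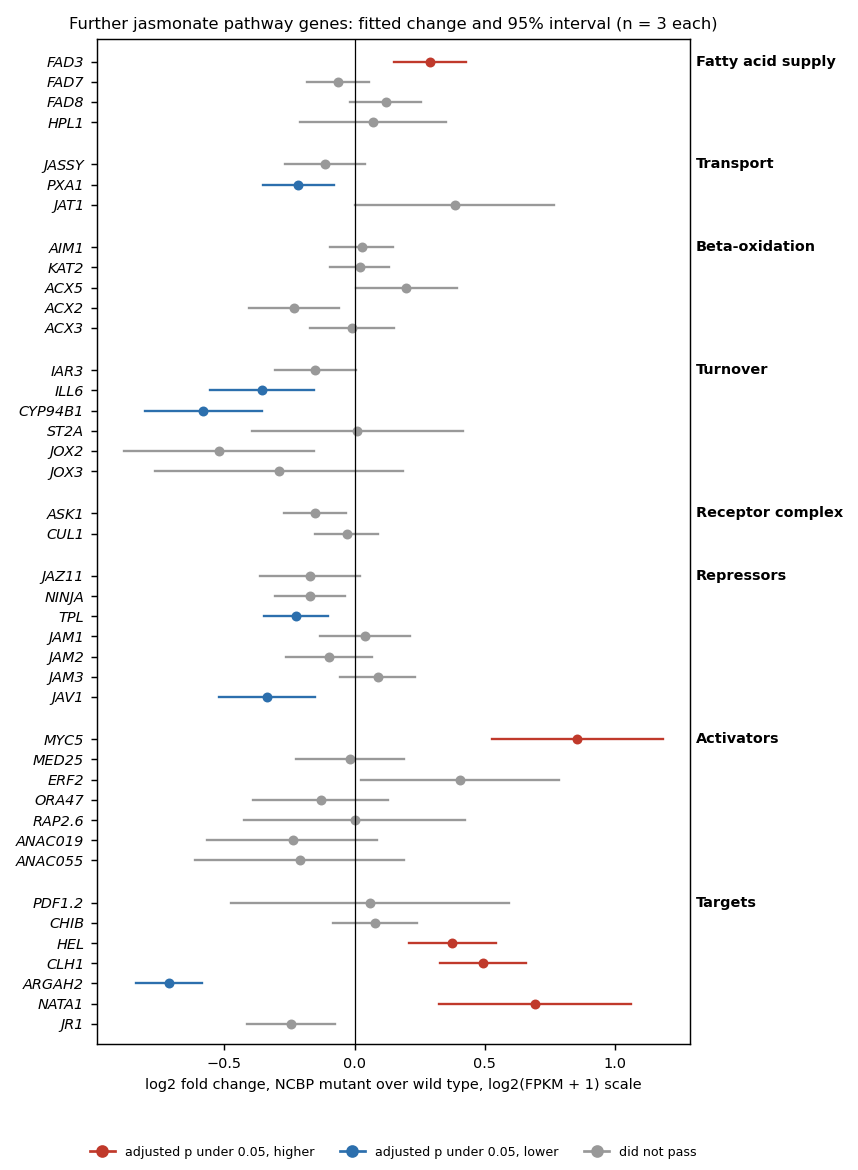
Fitted log2 fold change of the NCBP mutant over wild type for the 41 tested genes of the wider jasmonate list (x axis, log2(FPKM + 1) scale) with 95% intervals, grouped by role; red and blue mark an adjusted p under 0.05. ARGAH2 (-0.71) and CYP94B1 (-0.58) lie farthest to the left and MYC5 (0.85) and NATA1 (0.69) farthest to the right.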

How the data were processed

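The authors deposited FPKM for 22426 loci in a single table, per the file headers with a column for each library, and each column was matched to its sample by label. Reads were handled with HISAT2, per the submitters' processing notes. Not given in the sources used here are its version, the quantifier, the build and the gene models. Between 42 and 46 values per library lay above 0 but under 0.001, so not all deposited FPKM step by whole reads, and tests made for counts were not applied. Relative depth is the ratio shared by the most genes among values under 0.5 FPKM. FPKM depends on the library total, so abundant genes can move the rest.

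Genes with a mean of at least 1 FPKM over the 6 libraries (18064) were fitted as log2(FPKM + 1) with limma 3.58.1 in R 4.3.3 (mean trend, 2-sided, Benjamini-Hochberg), so fold changes understate those of low genes. Adjusted p of single genes are from limma. In data simulated for this comparison with 18064 genes, 86% of 1.5-fold and 95% of 2-fold changes were recovered, with 12 false calls. These changes were added on the log2(FPKM + 1) scale with normal noise, to a far smaller share of genes than passed here. The rates therefore do not carry over to fold changes in FPKM of low genes. Exact permutation tests were not used, as 3 against 3 libraries cannot go below 0.1. Names, exon overlaps and shared 50-base windows were taken from RefSeq's TAIR10.1 release, in which all 36 genes were found; the authors' build is not named, so no coordinates or sequences are printed.

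The members and lists were chosen with earlier results of these data known. Genes past the threshold, genes without overlap and a log2 fold change of at least 0.3 in size, and their nearest copies are given by library. Some further genes are given by library to show overlap, and PDF1.2, JOX2, FAD7 and FAD8 are named from the wider list after their values were seen. Alternatives were other pseudocounts, filters, scalings and moderation, array weights, a replicate block and leaving out each library.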

Additional observations from a re-analysis of the deposited data

How the results depend on the processing

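The counts were 5 higher and 2 lower for the 29 jasmonate genes, 5 and 6 for the wider list and 1133 and 1524 for all genes. Leaving out each library in turn gave 3 to 5 higher and 1 to 2 lower jasmonate genes, 3 to 5 and 2 to 3 in the wider list and 575 to 939 and 709 to 1084 over all genes, with fewer libraries in each fit. The lower jasmonate genes numbered 1, with AOS lost, under no filter, median-ratio scaling, quantile normalization and no mean trend; the cause was not tested. In the wider list 3 rose at a mean FPKM of at least 5, where MYC5 and NATA1 were no longer tested, and 3 fell after rescaling to the same sum.

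With a replicate block 3 jasmonate genes rose (LOX2, ORA59 and TAT3) and 1 fell (AOC1), with adjusted p of 0.0518 for OPCL1, 0.0558 for VSP2 and 0.0904 for AOS. That is 13.8% of the jasmonate genes, against 11% of all genes in the same fit. In the wider list 6 rose and 4 fell with the block, which lost ILL6 (0.0568), JAV1 (0.0616), TPL (0.0551) and PXA1 (0.0893). It kept the falls of CYP94B1 and ARGAH2, so some of its rises and falls were genes that did not pass in the main fit, and these are not named here. Nothing in the labels says that the numbers pair libraries. Deviations of same-numbered libraries correlated at 0.07, -0.07 and -0.06, and mutant replicate 3 correlated best with wild-type replicate 2 (0.13), so the numbers were not taken as pairs.

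LOX2, AOC1 and ORA59 passed in every alternative that tested them. The sign turned for 2 genes near 0, neither of which passed in any alternative. The log2 fold change of AOC2 (-0.008) was 0.019 after rescaling to the same sum, 0.033 with quantile normalization and -0.034 to 0.016 on leaving out each library. That of MYC4 (-0.021) was 0.004 after rescaling and -0.126 to 0.069 on leaving out each library. NATA1 moved with the pseudocount, from 0.24 with 5 to 1.25 with 0.1, and MYC5 from 0.39 to 1.18. Calls lost without single libraries in the wider list were those of NATA1, FAD3, ILL6, JAV1, TPL and PXA1. Depth limits the genes under 1 FPKM, for which a listed 0 can be a failed estimate.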
